A study of Mus musculus with 6 samples.

Results

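The genes described here are the neurotrophins Bdnf and Ntf3, their receptor kinases Ntrk2 and Ntrk3, and a pair of receptors for neurotrophin precursors, Ngfr and Sort1. These 6 genes were chosen by symbol from the 24346 listed in each file, and all 6 were found. RNA was from the hippocampus of C57BL/6 mice aged 12 months. The wild-type group (TonEBP+/+, libraries WT 1 to WT 3) and the TonEBP+/- group (libraries HET 1 to HET 3) were littermates from crosses between TonEBP+/- mice that had been backcrossed to C57BL/6J. TonEBP is a transcription factor encoded by Nfat5, and the labels name no promoter or Cre line that would limit its loss to a cell type. They give neither the part of the gene that was disrupted nor the sex of the mice, and they number the mice without saying how they were kept apart, so that p-values measure the spread between these samples.

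Neurotrophins are small secreted proteins made as precursors. The mature form of Bdnf binds TrkB, the receptor tyrosine kinase encoded by Ntrk2, and the mature form of neurotrophin-3, encoded by Ntf3, binds mainly TrkC, encoded by Ntrk3. Precursor forms bind a complex of the p75 neurotrophin receptor, encoded by Ngfr, and sortilin, encoded by Sort1, which also sorts precursors inside the cell. In the hippocampus Bdnf and TrkB are known for their part in synaptic strengthening after activity, and Ntrk2 and Ntrk3 both give full-length kinases and truncated forms without a kinase. A value per gene adds these forms together, so that neither the kinase form nor a single Bdnf promoter can be read from these files.

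Bdnf is transcribed from several starts, each with its own first exon joined to a shared coding exon. The RefSeq table of GRCm38.p6 holds 7 start sites for Bdnf, 2 for Ntf3 and 1 each for Ntrk2 and Ngfr, which is 4 of the 6 genes. They were searched on both strands, from 250 bases before to 50 after each start, for TGGAAA, the core of the element that TonEBP binds, and for TGACG, the half-site of the cAMP response element (CRE) through which activity acts on Bdnf. TGGAAA was found at 2 of the 7 Bdnf starts and TGACG at 1, and at 0 of the other starts listed, against 21.4% and 20.8% of all 32851 windows of 300 bases. A further TGGAAA match, on the other strand just after the start at 109722921, is not shown. The matches before a start are printed because they are the places where TonEBP and the CRE factors would be looked for at these genes. The capitals mark the motif, which reads TTTCCA or CGTCA where it lies on the other strand.
Bdnf, TonEBP core, 51 bases before the start at 109677032 (chr2:109676961-109677006, plus strand): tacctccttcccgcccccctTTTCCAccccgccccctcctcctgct
Bdnf, TonEBP core, 242 bases before the start at 109722921 (chr2:109722671-109722704, plus strand): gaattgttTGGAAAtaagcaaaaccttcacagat
Bdnf, CRE half-site, 35 bases before the start at 109692436 (chr2:109692381-109692425, plus strand): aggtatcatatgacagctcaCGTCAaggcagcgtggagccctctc
A match of these letters is a description of the window and not a site that was measured.

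The files name no unit. Their values were read as log2(FPKM + 1), where FPKM counts fragments relative to transcript length and to the depth of the library, and levels below are in FPKM on that reading. The number of fragments is not listed. Low values fell into steps that depended on gene length, from which the depth was estimated at 7725000 fragments in HET 1, the shallowest library, and 12550000 in HET 3, the deepest. Dentate granule, CA1 and excitatory neuron markers were at 1 FPKM or more in at least 1 library (13 of 13 genes), as were 5 of 6 markers of CA2 and CA3. Libraries HET 2 and HET 3 were low in markers of the neighbouring thalamus (summed level 121 and 116 FPKM, against 188 to 210 FPKM in the other 4), and choroid plexus markers ranged from 94.5 to 3420 FPKM over the 6 libraries. Nfat5, which is the targeted gene, had a log2 difference of -0.12 (SE 0.0963) and Trim37, named in the title of the series, one of -0.05 (SE 0.0609), each with a limma adjusted p of 1.00. The whole-gene value of Nfat5 therefore did not check the labels, and directions are those of the libraries as labelled. The genotypes did not overlap for Trim37 (92.6 to 93.7 FPKM in wild type, 88.5 to 91.2 FPKM in TonEBP+/-), as in 8.52% of all genes tested.

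Transcripts of the receptors were more abundant than those of the ligands, with the p75 receptor gene as the exception. Over the 6 libraries Ntrk2 averaged 71.9 ± 3.97 FPKM, Sort1 68.1 ± 4.83, Ntrk3 33.7 ± 1.58, Bdnf 11.7 ± 0.805, Ntf3 2.83 ± 0.351 and Ngfr 0.670 ± 0.173 FPKM (SD over 6 libraries of both genotypes). Ntrk2 exceeded Sort1 in 5 of 6 libraries, by a median of 1.05-fold, and these neighbours did not differ beyond their spread (two-sided exact sign-flip test over 6 libraries, adjusted p = 0.156). Every other step in the order was present in 6 of 6 libraries, with no overlap of the ranges: Sort1 was 2.00-fold above Ntrk3, Ntrk3 2.83-fold above Bdnf, Bdnf 4.38-fold above Ntf3 and Ntf3 4.51-fold above Ngfr (medians, adjusted p = 0.0391 each in the exact sign-flip test, adjusted over 5 neighbour pairs). An unadjusted p of 0.03125 is the smallest that 6 libraries can give. The order was set by the mean levels in these same libraries. The pairs and their directions thus came from the values tested, and these p-values are no independent check of the order. Levels per length depend on the gene models used by the authors, which no label or header names. In GENCODE M21 the exons of Ntrk3 cover 30170 bases in 20 transcripts and those of Ngfr 3446 bases in 1.

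**Figure D1:**
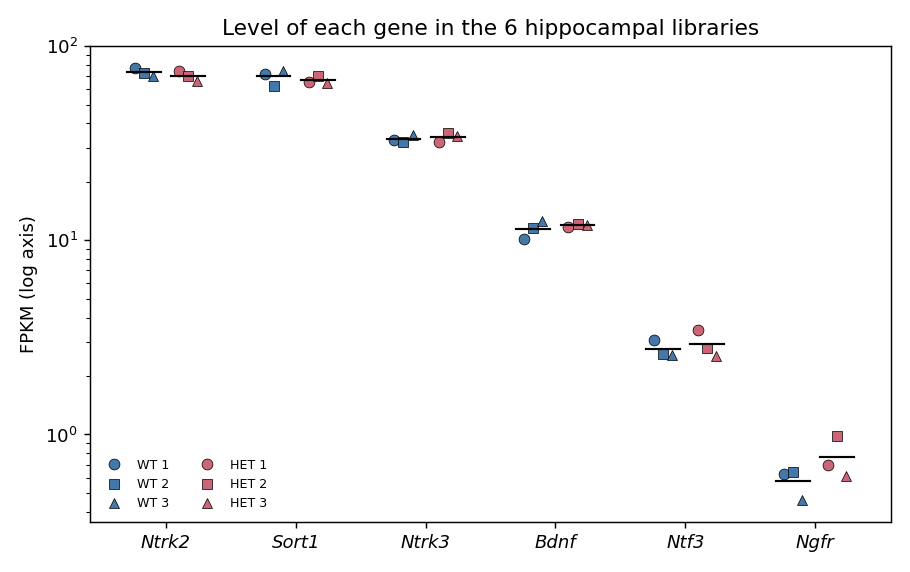
FPKM (log axis) of the 6 genes in each library, with circles, squares and triangles for mice 1, 2 and 3 of each genotype and a line at the mean of each genotype. The genes are spread from 0.460 FPKM (Ngfr in WT 3) to 77.5 FPKM (Ntrk2 in WT 1), and within each gene the 2 genotypes overlap.

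No difference between genotypes was detected in any of the 6 genes. In limma, 0 of the 5 that passed the filter of 1 FPKM in at least 3 libraries had an adjusted p under 0.05, and 0 had an unadjusted p under 0.05. Across the 13122 genes tested 0 passed, 484 had an unadjusted p under 0.05 (3.69%), and the genotypes did not overlap in 8.52%. They overlapped in all 6 of the genes described here. In the fit without a filter, which gives the test of Ngfr, 0 of 20084 genes passed. The share of genes called was thus 0 both among the members and in the background.

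Of the ligands, Bdnf (chromosome 2, 109674700 to 109727043, GRCm38, plus strand) was at 10.2, 11.5 and 12.5 FPKM in WT 1 to WT 3 and at 11.7, 12.1 and 12.0 FPKM in HET 1 to HET 3. The TonEBP+/- libraries lay close together inside the wild-type range, whose lowest value was WT 1. The means were 11.4 ± 1.17 and 11.9 ± 0.224 FPKM (SD, n = 3 each). The log2 difference was 0.06 (SE 0.0864, 95% interval -0.13 to 0.26, limma adjusted p = 1.00), which spans ratios of 0.914 to 1.19 on the scale of FPKM + 1. Without WT 1 the difference was -0.0091, so that its direction rested on that library. The antisense gene Gm45346 shares exon bases with Bdnf. The libraries were stranded, but no source states whether counting used the strand.

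Ntf3 (chromosome 6, 126101412 to 126166772, minus strand) was at 3.05, 2.61 and 2.58 FPKM in WT 1 to WT 3 and at 3.43, 2.78 and 2.54 FPKM in HET 1 to HET 3. HET 1 was the highest library and HET 3 the lowest, so that the TonEBP+/- values enclosed those of the wild type. The log2 difference was 0.06 (SE 0.121, 95% interval -0.21 to 0.33, limma adjusted p = 1.00). Without HET 1 the difference turned to -0.0323. At the estimated depth these levels correspond to about 38.4 to 54.9 fragments per library, for which counting alone gives an SD of 13.5% to 16.1%. The coefficient of variation over the 6 libraries was 12.4%. Ntf3 is known in the hippocampus from CA2 and dentate granule neurons. The summed level of the 6 CA2 and CA3 markers was 255 to 333 FPKM in wild type and 263, 186 and 211 FPKM in HET 1 to HET 3, and that of the 5 dentate granule markers was 65.0 to 69.1 and 59.9 to 65.0 FPKM. Pcp4 alone made up 58.6% to 70.6% of the CA2 and CA3 sum. With each of the 6 markers weighted equally (mean log2 value centred on the mean of the libraries) the CA2 and CA3 list was at 0.11, 0.09 and 0.01 in WT 1 to WT 3 and at 0.13, -0.24 and -0.11 in HET 1 to HET 3. HET 1 was thus the highest library for Ntf3 and, narrowly over WT 1, for these markers on that scale. Amigo2, Bok and Map3k15 were highest in HET 1, Amigo2 barely so (5.0749 FPKM, against 5.0732 in WT 1). Map3k15 was under 1 FPKM in all 6 libraries (0.755 FPKM in HET 1, 0.382 in WT 1). With Map3k15 left out of the equally weighted mean, HET 1 was no longer the highest library. Pcp4 was highest in WT 2 and Cacng5 in WT 1, and Rgs14 was lowest in HET 1. The part of these cells in the Ntf3 level was not tested.

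Both receptor kinases held narrow ranges. Ntrk2 (chromosome 13, 58806472 to 59133970, plus strand) was at 77.5, 72.9 and 70.3 FPKM in WT 1 to WT 3 and at 74.6, 70.4 and 66.0 FPKM in HET 1 to HET 3. HET 3 was the only library below the wild-type range. The log2 difference of -0.06 (SE 0.0723, 95% interval -0.23 to 0.10, limma adjusted p = 1.00) spans ratios of 0.855 to 1.07. Astrocytes make much of the truncated form of TrkB. In WT 1 to WT 3 the summed level of 5 astrocyte markers was 586, 652 and 645 FPKM. In HET 1 to HET 3 it was 746, 644 and 679 FPKM. WT 1 was lowest for this sum and highest for Ntrk2. All 5 markers were highest in HET 1. Gfap was at 214, 273 and 271 FPKM in wild type and 328, 260 and 301 FPKM in TonEBP+/-. Slc1a3 was higher in each TonEBP+/- library than in any of wild type, whereas Aldh1l1 was lower in HET 2 and HET 3. Aqp4 and Gja1 overlapped between genotypes, as did Gfap. The part of astrocytes in the Ntrk2 level was not tested.

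Ntrk3 (chromosome 7, 78179986 to 78581034, minus strand) was at 32.9, 32.0 and 34.8 FPKM in WT 1 to WT 3 and at 32.0, 35.7 and 34.6 FPKM in HET 1 to HET 3. It varied least among the 6 genes, with a coefficient of variation of 4.69%. Ordered by level, libraries of the 2 genotypes alternated from the lowest (WT 2) to the highest (HET 2). The log2 difference was 0.03 (SE 0.0712, 95% interval -0.13 to 0.19, limma adjusted p = 1.00).

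Ngfr (chromosome 11, 95568818 to 95587698, minus strand) was under 1 FPKM in all 6 libraries and did not pass the filter. It was at 0.624, 0.641 and 0.460 FPKM in WT 1 to WT 3 and at 0.698, 0.984 and 0.614 FPKM in HET 1 to HET 3. HET 1 and HET 2 lay above all wild-type libraries and HET 3 lay below WT 1 and WT 2. The means of 0.575 ± 0.10 and 0.765 ± 0.194 FPKM (SD, n = 3 each) had a ratio of 1.33, the widest of the 6 genes. In the fit without a filter the log2 difference was 0.16 (SE 0.118, 95% interval -0.11 to 0.43, limma adjusted p = 0.999). The scale compresses low values. With a pseudocount of 0.1 in place of 1 the difference was 0.35 (95% interval -0.26 to 0.96, limma adjusted p = 1.00), and without HET 2 it was 0.0743 on the deposited scale. About 15.1 to 29.2 fragments per library lie behind these values, for which counting alone gives an SD of 18.5% to 25.7%. The coefficient of variation over the libraries was 25.8%.

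Ngfr is made at high level by cholinergic neurons of the basal forebrain, whose cell bodies lie outside the hippocampus, and also by cells of vessel walls and meninges. The defining markers of cholinergic neurons (Chat, Slc18a3 and Slc5a7) summed to 0.202 to 0.318 FPKM in wild type and 0.224 to 0.313 FPKM in TonEBP+/-, with 0 of 3 at 1 FPKM. The 8 meningeal and fibroblast markers, all at 1 FPKM or more in some library, summed to 54.6 to 74.0 FPKM in wild type and to 57.4, 94.5 and 90.2 FPKM in HET 1 to HET 3. The 5 mural cell markers summed to 57.1 to 74.4 and 57.5 to 77.6 FPKM. HET 2, the highest library for Ngfr, was also the highest for the meningeal and mural lists. Of the mural markers only Vtn was highest in HET 2 (31.8 FPKM). Rgs5 was highest in WT 3, and Pdgfrb, Kcnj8 and Abcc9 in WT 1, with Kcnj8 lowest in HET 2. Of the meningeal markers, Lum and Igf2 were highest in HET 3. Igf2 alone made up 47.0% of the meningeal sum of HET 3. The other 7 meningeal markers summed to 39.6, 40.0 and 41.2 FPKM in WT 1 to WT 3 and to 35.8, 69.6 and 47.8 FPKM in HET 1 to HET 3. The part of these cells in the Ngfr level was not tested. In bulk RNA, fewer cells of a type and less RNA per cell cannot be told apart.

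**Figure D2:**
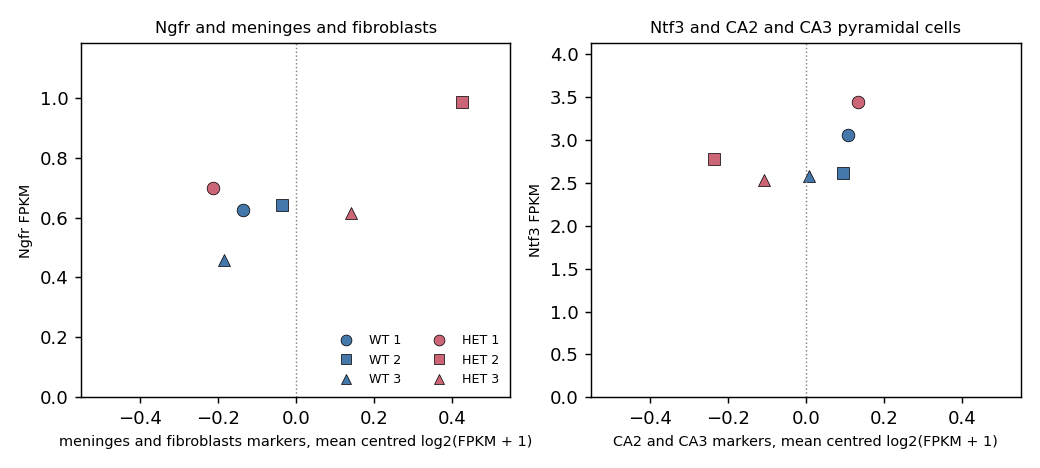
FPKM of Ngfr against 8 meningeal and fibroblast markers (left) and of Ntf3 against 6 CA2 and CA3 markers (right), the markers as their mean log2(FPKM + 1) centred on the mean of the libraries, with 1 point per library and the FPKM axes from 0. HET 2 is highest on both axes at left (0.43 and 0.984 FPKM), and HET 1 at right (0.13 and 3.43 FPKM). At right WT 1 is next on both axes (0.11 and 3.05 FPKM). Without Map3k15, a marker under 1 FPKM in all libraries, HET 1 would not be highest on the marker axis at right.

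Sort1 (chromosome 3, 108283974 to 108361519, plus strand) was at 71.9, 62.6 and 74.7 FPKM in WT 1 to WT 3 and at 65.3, 70.1 and 64.2 FPKM in HET 1 to HET 3. The wild-type libraries included both the highest and the lowest value. The log2 difference was -0.06 (SE 0.0809, 95% interval -0.24 to 0.12, limma adjusted p = 1.00). The antisense gene Gm12523 shares exon bases with it, with the same limit as for Bdnf.

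**Figure D3:**
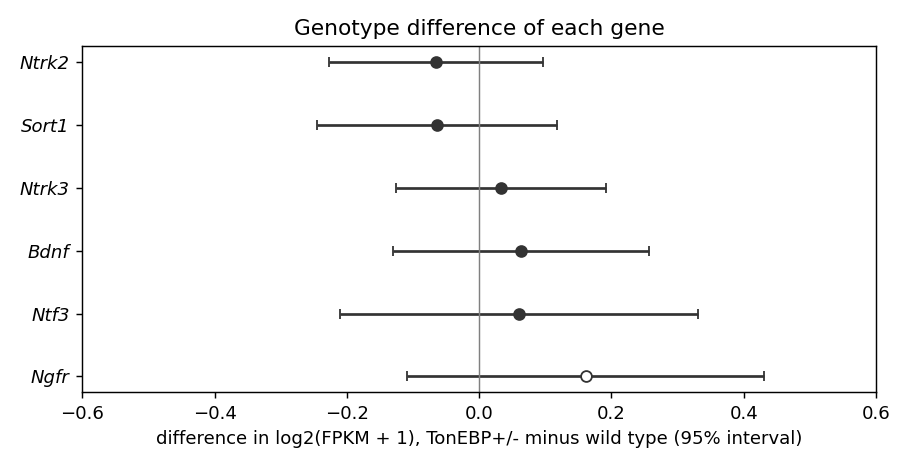
Difference in log2(FPKM + 1), TonEBP+/- minus wild type, with the 95% interval from limma (3 libraries per genotype). All 6 intervals cross 0; the open circle marks Ngfr, which is from the fit without a filter and has a wide interval (-0.11 to 0.43), as has Ntf3 (-0.21 to 0.33).

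Ratios between genes of the same library were compared for 6 pairs. They are given as ratios of FPKM, and each p is for the difference between the 2 genes in log2(FPKM + 1), on which the pseudocount weighs for the low genes. The ligand ratio of Ntf3 to Bdnf was 0.244 ± 0.0491 in wild type and 0.245 ± 0.0437 in TonEBP+/- (SD, n = 3 each; exact permutation p = 1.0). Within each genotype it was highest in mouse 1 (0.299 and 0.295), and the other 4 libraries lay between 0.206 and 0.230. The receptor ratio of Ntrk3 to Ntrk2 was 0.425, 0.438 and 0.496 in the wild-type mice 1 to 3 and 0.429, 0.507 and 0.523 in the TonEBP+/- mice 1 to 3, so that HET 2 and HET 3 exceeded the wild-type range (log2 difference 0.10, exact permutation p = 0.4). Bdnf relative to its receptor gene Ntrk2 was 0.156 ± 0.0234 and 0.170 ± 0.0128 (SD, n = 3 each; exact permutation p = 0.5), and Ntf3 relative to Ntrk3 was 0.0827 ± 0.00937 and 0.0863 ± 0.0185 (SD, n = 3 each; exact permutation p = 0.9). Bdnf relative to Sort1 was 0.164 ± 0.0212 and 0.179 ± 0.00735 (SD, n = 3 each; exact permutation p = 0.3). Ngfr relative to Sort1 was 0.00835 ± 0.00206 and 0.0114 ± 0.00232 (SD, n = 3 each; exact permutation p = 0.3). The log2 difference of this ratio was 0.23 with the pseudocount of 1 and 0.46 for the FPKM ratio itself (exact permutation p = 0.2, adjusted p = 0.75). These tests were two-sided, 0.1 is the smallest p that 3 against 3 allow, and adjusted over the 6 pairs the values were 0.75 to 1.0. In each pair the genotypes overlapped.

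**Figure D4:**
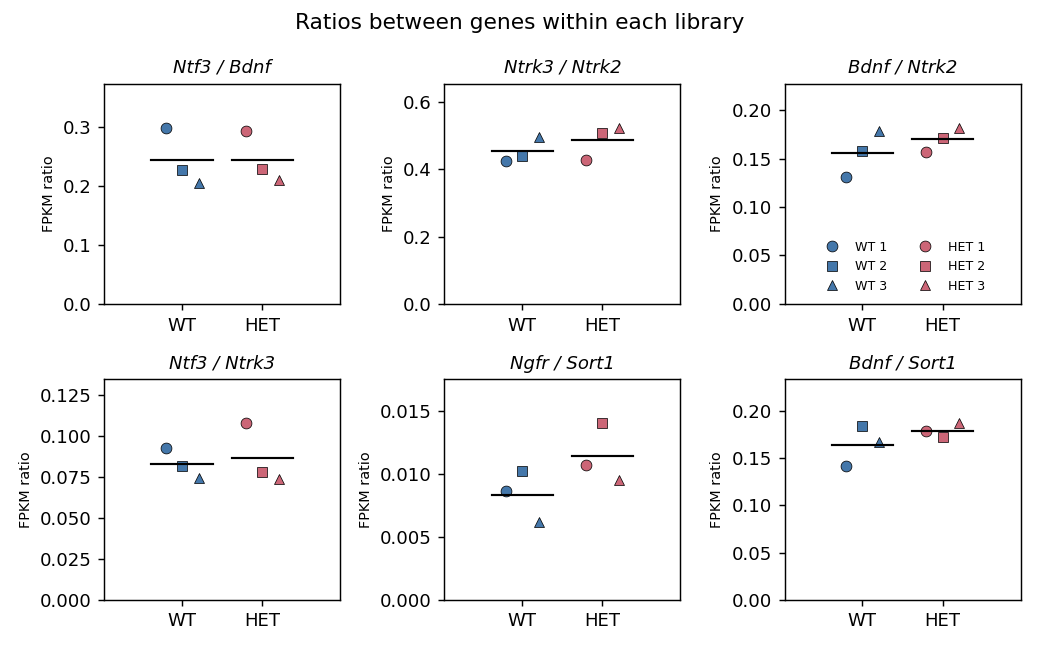
Ratio of FPKM between 2 genes of the same library, for 6 pairs, with 1 point per library, a line at the mean of each genotype and each axis from 0. The genotypes overlap in every panel, and mouse 1 is highest of both genotypes in the ratio of Ntf3 to Bdnf (0.299 and 0.295).

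Ntf5, the gene for neurotrophin-4, a further ligand of TrkB, did not pass the filter. It lay between 0 (HET 2) and 0.466 FPKM (WT 2), with no order by genotype.

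Genes that process, sort and transmit the neurotrophin signal were taken from 6 lists of 134 genes, of which 122 passed the filter. Of these 0 passed an adjusted p of 0.05, 63 were higher and 59 lower in TonEBP+/-, and the median log2 difference was 0.00, as over all genes tested (0.00). The genotypes did not overlap in 8 of the 122 (6.56%), beside 8.52% of all genes tested, and 5 had an unadjusted p under 0.05, beside 3.69%.

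Among 14 tested genes of precursor processing and sorting, 8 were higher and 6 lower, with a median of 0.02. Sorcs1, a sorting receptor of the same Vps10p domain family as sortilin, had the smallest p of all the lists. It was at 4.48, 4.67 and 5.27 FPKM in WT 1 to WT 3 and at 3.47, 3.70 and 3.64 FPKM in HET 1 to HET 3, so that the genotypes did not overlap. The log2 difference was -0.33 (SE 0.0970) and the limma adjusted p 1.00. Plat, which encodes tissue plasminogen activator, a protease that leads to cleavage of the Bdnf precursor by plasmin, was at 10.2, 10.1 and 11.1 FPKM in wild type and 11.7, 15.4 and 12.3 FPKM in TonEBP+/- (log2 difference 0.29, SE 0.103, limma adjusted p = 1.00). HET 2 was its highest library, as it was for Ngfr. It was also highest for the summed meningeal, mural, endothelial, CA1 and oligodendrocyte precursor markers. The part of these cells in the Plat level was not tested. Pcsk5, a proprotein convertase gene, had a log2 difference of 0.30 (SE 0.141, limma adjusted p = 1.00), again with HET 2 highest (2.95 FPKM, against 1.58 to 2.36 in the others).

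Trk adaptors and kinases numbered 43 tested genes, 19 higher and 24 lower, with a median of -0.01. Shc1, an adaptor that binds activated Trk receptors, was at 3.19, 2.96 and 2.81 FPKM in wild type and 3.87, 3.50 and 3.88 FPKM in TonEBP+/-, without overlap (log2 difference 0.25, SE 0.0996, limma adjusted p = 1.00). Next by p were Sos1, an exchange factor for Ras (-0.27, SE 0.129), and Mapk7, which encodes the kinase ERK5 (0.20, SE 0.124). Their genotypes overlapped, and the adjusted p was 1.00 for each.

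Co-receptors and effectors of p75 numbered 27 tested genes, 14 higher and 13 lower, with a median of 0.00. Psen2, a subunit of the gamma-secretase that cuts p75 in the membrane, had a log2 difference of -0.27 (SE 0.108), the Nogo receptor gene Rtn4r, a partner of p75, one of 0.18 (SE 0.105), and Mapk9, a JNK kinase gene, one of -0.11 (SE 0.0730), all with a limma adjusted p of 1.00. The 13 regulators of Bdnf transcription had a median of 0.01, with Mef2a (-0.10, SE 0.0717), Creb1 (0.10, SE 0.0850) and Npas4 (-0.32, SE 0.279) first by p. Npas4, an activity-induced factor that acts at Bdnf promoters, ranged from 1.31 FPKM (HET 1) to 3.87 FPKM (WT 1) and HET 3 was at 3.86 FPKM, whereas Bdnf was lowest in WT 1.

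Genes that Bdnf induces numbered 15, with 9 higher, 6 lower and a median of 0.08. Fos was at 13.1, 11.7 and 14.0 FPKM in WT 1 to WT 3 and at 7.80, 11.0 and 10.7 FPKM in HET 1 to HET 3 (log2 difference -0.37, SE 0.125). Homer1, a postsynaptic scaffold gene, was at 38.5, 40.2 and 42.5 FPKM against 43.1, 43.4 and 57.8 FPKM (0.23, SE 0.110). The genotypes did not overlap in either gene, and the directions were opposite. Nptx2, a secreted pentraxin gene, had a log2 difference of -0.20 (SE 0.111), and the limma adjusted p was 1.00 for all 3 genes. Of the ligands and receptors of the GDNF and CNTF families, which are other neurotrophic factors, 10 of 17 were tested, 5 higher and 5 lower, with a median of -0.00. Cntf (0.38, SE 0.172), Cntfr (-0.22, SE 0.135) and Gfra4 (0.12, SE 0.0757) came first by p, with a limma adjusted p of 1.00 each.

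**Figure D5:**
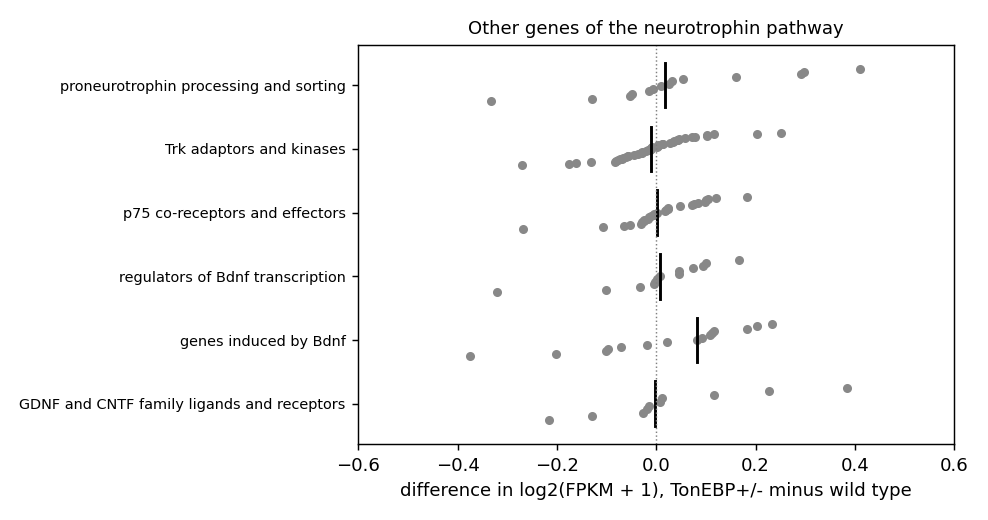
Difference in log2(FPKM + 1), TonEBP+/- minus wild type, of each tested gene of 6 lists (points, spread vertically by rank) with the list median (black line). The medians lie between -0.01 (43 Trk adaptors and kinases) and 0.08 (15 genes induced by Bdnf), and 0 points passed the test.

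The genes whose log2 values followed each member most closely over the 6 libraries were picked for the 5 members that passed the filter. The pool was 8828 genes with a mean of at least 5 FPKM, after unnamed gene models, pseudogenes and small RNAs were left out. They are given as a description, since the best of so many always lie close. For Ntf3 the closest gene was Crtc1, a coactivator of CREB, at 29.2, 25.3 and 24.8 FPKM in the wild-type mice 1 to 3 and 34.0, 27.3 and 24.2 FPKM in the TonEBP+/- mice 1 to 3, with the same order of libraries as Ntf3. Sept3 and Jph3 came next. For Bdnf they were Ormdl3, Fam114a2 and Crhbp, the gene for the corticotropin-releasing hormone binding protein, each lowest in WT 1 and highest in WT 3. Peli2, Rab11b and Tbc1d16 were closest to Ntrk2, and Scn2a1, a sodium channel gene, Slitrk1 and Slc7a8 to Ntrk3. For Sort1 they were Cwc22, Srgap3 and Madd. The likeness (Pearson correlation over 6 libraries, which share depth and dissection) was 0.97 to 1.00 for these 15 genes.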

How the data were processed

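Each of the 6 files holds 1 value per gene symbol for 1 library. Per the submitters' processing notes, TopHat and the build mm10 were used, and per the labels' protocols the libraries were stranded. For the abundance program and annotation no source is given here. The authors deposited log2 values, read here as log2(FPKM + 1), since 64.7% to 70.1% of low values in single-transcript genes lay within 0.15 of a whole step set by gene length. The step size, an estimate of depth, was chosen to bring these same values closest to whole steps. That share is therefore not an independent check of the unit. The 13122 genes that reached 1 FPKM in 3 or more libraries were tested with limma 3.58.1 under R 4.3.3 (genotype alone in the design, moderated with trend and robust fitting). P-values were adjusted by Benjamini-Hochberg over those genes, with 0.05 as threshold. Ngfr, under the filter, was taken from a fit of the 20084 genes above 0. Ratios and the order of levels were compared with exact tests over libraries. Positions are RefSeq's on GRCm38, the assembly that mm10 names. The members and lists were chosen with earlier results of these data known. Named genes were the members, Nfat5, Trim37, Ntf5, the 3 genes of each list with the smallest p, and the 3 closest genes of each member that passed the filter; a few genes of the lists are not reported here. Alternatives were 2 scalings, 2 filters, a pseudocount of 0.1, no robust option, a replicate block, an adjusted p of 0.1 and each library left out. Ratios of FPKM with no pseudocount were added after the data were seen.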

Additional observations from a re-analysis of the deposited data

How the results depend on the processing

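The count of 0 members and 0 pathway genes past the threshold held under every alternative run. Over all genes the count was 0 to 8 with 1 library left out: 8 without HET 1, 1 each without WT 1, WT 2 and HET 3, and 0 in the other alternatives. None of those genes was a member or in the pathway lists. The 8 included Plekhg1 and Prkcd, which are among the thalamus markers. Without HET 1 the TonEBP+/- group held only HET 2 and HET 3, which were low in those markers, and the cause was not tested. With 1 library left out, log2 differences ranged from -0.0091 to 0.1276 for Bdnf, -0.0323 to 0.131 for Ntf3, -0.1072 to -0.0205 for Ntrk2, 0.0004 to 0.0769 for Ntrk3, 0.0743 to 0.2232 for Ngfr and -0.1389 to -0.0124 for Sort1. The ratio of Ntf3 to Bdnf (log2 difference -0.0026) turned to 0.0094 with a pseudocount of 0.1 and to 0.0113 for the FPKM ratio itself, and ranged from -0.1098 to 0.1273 with 1 library left out (0.1273 without WT 1, 0.0293 without HET 2, 0.0727 without HET 3). That of Ntf3 to Ntrk3 (0.0273) ranged from -0.1092 (without HET 1) to 0.1086 and was -0.0378 without WT 3. The cause was not tested. Of the 5 steps in the order of levels, 4 passed, and 0 passed with 1 library left out, where the smallest possible p is 0.0625; the steps kept their direction.

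The replicate block left 0 members past the threshold. In this balanced design it leaves the differences equal by arithmetic (0.0631 for Bdnf, -0.0026 for the ratio of Ntf3 to Bdnf) and bears on the p-values. The numbers were not taken as pairs, since the labels state no litter, batch or day shared by same-numbered mice. Deviations of same-numbered mice correlated at -0.2085, -0.2469 and -0.1568, and those of mice with unlike numbers at 0.0493 to 0.1688. Deviations were taken from the mean of each genotype, so that negative values for same numbers bring positive ones for unlike numbers by arithmetic. The contrast of the signs is therefore not a separate observation. Over same-numbered pairs the exact sign-flip p of the ratios was 0.25 for Ntrk3 to Ntrk2, Bdnf to Ntrk2 and Ngfr to Sort1, the smallest that 3 pairs allow, 0.5 for Bdnf to Sort1 and 1.0 for the other 2. Depth limits Ngfr, at about 15.1 to 29.2 fragments per library.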
